A study of Mus musculus with 6 samples.

Results

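Nuclear long noncoding RNAs were followed through every table of a mouse brain study of nuclei taken from formalin-fixed, paraffin-embedded (FFPE) tissue. The 7 genes, named by symbol, were Malat1, Neat1, Meg3, Rian, Mirg, Miat and Snhg11. Of these, 6 had a row in each of the 6 tables that held values, among 19006 mouse genes in the SCRB-seq table, 21987 in the bulk SMART-Seq2 table, 23295 in the table of FFPE and frozen plate nuclei, 21608 in each of the tables of the FFPE plate batches and 19905 in the droplet table. Rian was not analysed here.

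All material came from C57BL/6J mice aged 8 to 12 weeks, with no transgene or drug named, and the labels call the tissue cortex. FFPE scrolls 50 µm thick were deparaffinized by 1 of 3 methods (heated mineral oil, heated xylene or room-temperature xylene), and frozen tissue served as the reference in the annotation tables. SCRB-seq, a plate method that tags transcripts near the 3′ end, was run on 64 wells, with 8 wells of 10 nuclei and 8 wells of 100 nuclei for each of the 4 treatments. SMART-Seq2, a full-length plate method, was run on 12 bulk wells (1 well each of 10, 50 and 100 nuclei per treatment) and on single nuclei, of which 143 FFPE and 137 frozen shared a table, and 7031 FFPE nuclei came from a single droplet library with 12 annotation classes. No animal was named for any well, so wells are technical replicates and the p-values below measure only the spread between wells. Each treatment and nuclei number in SCRB-seq was also 1 library pool, so pool and group cannot be told apart. Mouse counts per SCRB-seq well ran from 7512 to 167144 (median 57530), and totals per bulk SMART-Seq2 well from 270363 to 942966. SCRB-seq depth followed treatment, with a median of 26385 for mineral oil wells, beside 64960 (room-temperature xylene), 67425 (heated xylene) and 58642 (frozen). Numbers of SCRB-seq wells with a count are therefore not given at equal depth. The part of depth in the members' SCRB-seq differences was not tested beyond thinning.

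Long noncoding RNAs of this kind stay in the nucleus, where they take part in the organization of nuclear bodies and chromatin. Malat1 sits in nuclear speckles, which store splicing factors, and Neat1 is the scaffold of paraspeckles. Meg3, Rian and Mirg are maternally expressed transcripts of the imprinted Dlk1-Dio3 domain and host small RNAs, Miat (Gomafu) forms its own nuclear foci in neurons, and Snhg11 is a small nucleolar RNA host gene expressed in neurons.

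In the GENCODE M21 annotation of GRCm38, the assembly also called mm10, Malat1 lay on the minus strand of chr19:5795690-5802672 as a single exon of 6983 bases. Neat1 lay on the same strand at chr19:5824708-5845478, 22035 bases away, with a long single-exon form of 20771 bases and a short form of 3004 bases. Their RNA ends are shown because both long forms are known to end in a triple helix of genome-encoded A and U tracts in place of a poly(A) tail, the feature that oligo(dT) primers bind. Capitals mark the U-rich and A-rich tracts (U written as T), 5′ to 3′ on the minus strand, at chr19:5795982-5796071 for Malat1 and chr19:5824708-5824797 for the long Neat1 form.
Malat1: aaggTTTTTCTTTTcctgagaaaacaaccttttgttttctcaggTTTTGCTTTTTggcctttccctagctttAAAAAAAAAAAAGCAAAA
Neat1 long: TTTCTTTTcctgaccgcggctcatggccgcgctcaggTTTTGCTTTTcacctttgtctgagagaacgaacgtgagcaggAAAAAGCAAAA
A search of the sense strand for at least 3 T, then C or GC, then at least 4 T, at most 80 bases before at least 5 A, then GC, then at least 4 A, found this arrangement in 10 of 141672 transcripts (0.00706%), from 6 genes.

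The short Neat1 form and the other 3 genes annotated as lincRNA ended in a polyadenylation hexamer, shown in capitals. The Neat1 short end is chr19:5842307-5842356 on the minus strand, the Meg3 end chr12:109571677-109571726 on the plus strand, the Mirg end chr12:109749409-109749458 on the plus strand and the Miat end chr5:112213228-112213277 on the minus strand.
Neat1 short: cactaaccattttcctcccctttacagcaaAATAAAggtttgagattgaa
Meg3: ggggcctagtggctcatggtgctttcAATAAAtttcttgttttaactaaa
Mirg: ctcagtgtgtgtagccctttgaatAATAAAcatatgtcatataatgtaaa
Miat: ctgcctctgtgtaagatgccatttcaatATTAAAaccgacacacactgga
The hexamer AATAAA was in the last 50 bases of 26.6% of all transcripts, and ATTAAA in those of 8.63%. A match describes these letters and is no measured end. Meg3 (chr12:109541001-109571726), Rian (chr12:109603940-109661716) and Mirg (chr12:109729764-109749460) followed each other on the plus strand with gaps of 32213 and 68047 bases. Miat occupied chr5:112213228-112229395 on the minus strand, and Snhg11 occupied chr2:158375638-158386145 on the plus strand and is annotated as protein_coding. Runs of 8 or more A, sites where an oligo(dT) primer can also anneal, numbered 7 in the longest Meg3 transcript (longest run 16), 3 in that of Snhg11 (longest 8), 1 in that of Malat1 (longest 12) and 0 in those of Neat1, Mirg and Miat. Malat1, Meg3, Miat and Mirg each overlap an annotated gene on the opposite strand (Gm37376, Gm26906, Gm26953 and Gm24321), and no source used here gives the strand used in counting, so reads from either strand cannot be told apart there.

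The SCRB-seq wells compared the 3 deparaffinization methods with frozen nuclei. Malat1, Meg3, Miat and Snhg11 were lower in FFPE than in frozen wells, and Neat1 was higher. Of the 5 members tested, 4 fell and 1 rose, where 27.7% of all 1478 genes tested fell, 30.2% rose and 58.0% changed in either direction (edgeR quasi-likelihood test, adjusted p under 0.05). Levels are counts-per-million values (CPM) over all mouse counts, and changes are log2 fold changes, FFPE minus frozen.

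Malat1 was the most abundant member in every treatment. Its level was 66955 at the lowest, 91578 at the median and 114196 at the highest of 16 frozen wells. It was 2344, 10306 and 16920 CPM in mineral oil wells, 4912, 11631 and 19038 CPM in heated xylene wells, and 7306, 16987 and 28080 CPM in room-temperature xylene wells. All 48 FFPE wells thus lay below all 16 frozen wells. Malat1 took 9.19% of the mouse counts of a frozen well on average and 1.27% of those of an FFPE well. The change was -2.96 ± 0.15 (SE), 7.76-fold lower, at an edgeR adjusted p of 2.8e-28.

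Neat1 went the other way and was sparse. In frozen wells the lowest and median levels were 0 and the highest was 89.8 CPM, with 30 counts spread over 7 of 16 wells. Mineral oil wells had 0, 50.2 and 602 CPM, heated xylene wells 64.7, 225 and 598 CPM, and room-temperature xylene wells 0, 23.1 and 298 CPM. Neat1 was counted in all 16 heated xylene wells, 14 of them above every frozen well, but in 9 mineral oil wells and 8 room-temperature xylene wells. Over the methods Neat1 rose by 2.36 ± 0.53, 5.13-fold (edgeR adjusted p = 0.000101).

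Meg3, the leading transcript of the Dlk1-Dio3 domain, had 10334, 12164 and 15047 CPM at the lowest, median and highest of the frozen wells. Mineral oil wells had 0, 2494 and 5639 CPM, heated xylene wells 1554, 5047 and 7275 CPM, and room-temperature xylene wells 1716, 4293 and 6421 CPM. No FFPE well reached the lowest frozen well. Meg3 fell by 1.81 on the log2 scale (SE 0.21, 3.50-fold lower, edgeR adjusted p = 2.1e-11).

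Mirg, the microRNA host at the far end of the same domain, was sparse and was left out of the test by the filter on low counts. It was counted in 15 of 16 frozen wells (lowest 0, median 94.8, highest 259 CPM) and in 28 of 48 FFPE wells (lowest 0, median 13.0, highest 175 CPM). The groups overlapped. None of the 5 coding genes of the domain on the list (Dlk1, Rtl1, Dio3, Begain and Wdr25) passed the filter either.

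Miat had 284, 407 and 712 CPM at the lowest, median and highest of the frozen wells. It was counted in 2 of 16 mineral oil wells, with a highest level of 90.9 CPM. Heated xylene wells had 51.1, 104 and 266 CPM, and room-temperature xylene wells 0, 35.8 and 187 CPM. All 48 FFPE wells lay below all frozen wells, and Miat fell by 3.33 (SE 0.29, 10.0-fold lower, edgeR adjusted p = 1.7e-16).

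Snhg11 had 2101, 3473 and 4893 CPM at the lowest, median and highest of the frozen wells. Mineral oil wells had 60.9, 827 and 2960 CPM, heated xylene wells 1268, 1902 and 2979 CPM, and room-temperature xylene wells 499, 1110 and 1563 CPM. The room-temperature xylene wells did not overlap the frozen wells, while 3 mineral oil and 5 heated xylene wells did. Snhg11 fell by 1.39 (SE 0.23, 2.61-fold lower, edgeR adjusted p = 5.2e-07).

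**Figure D1:**
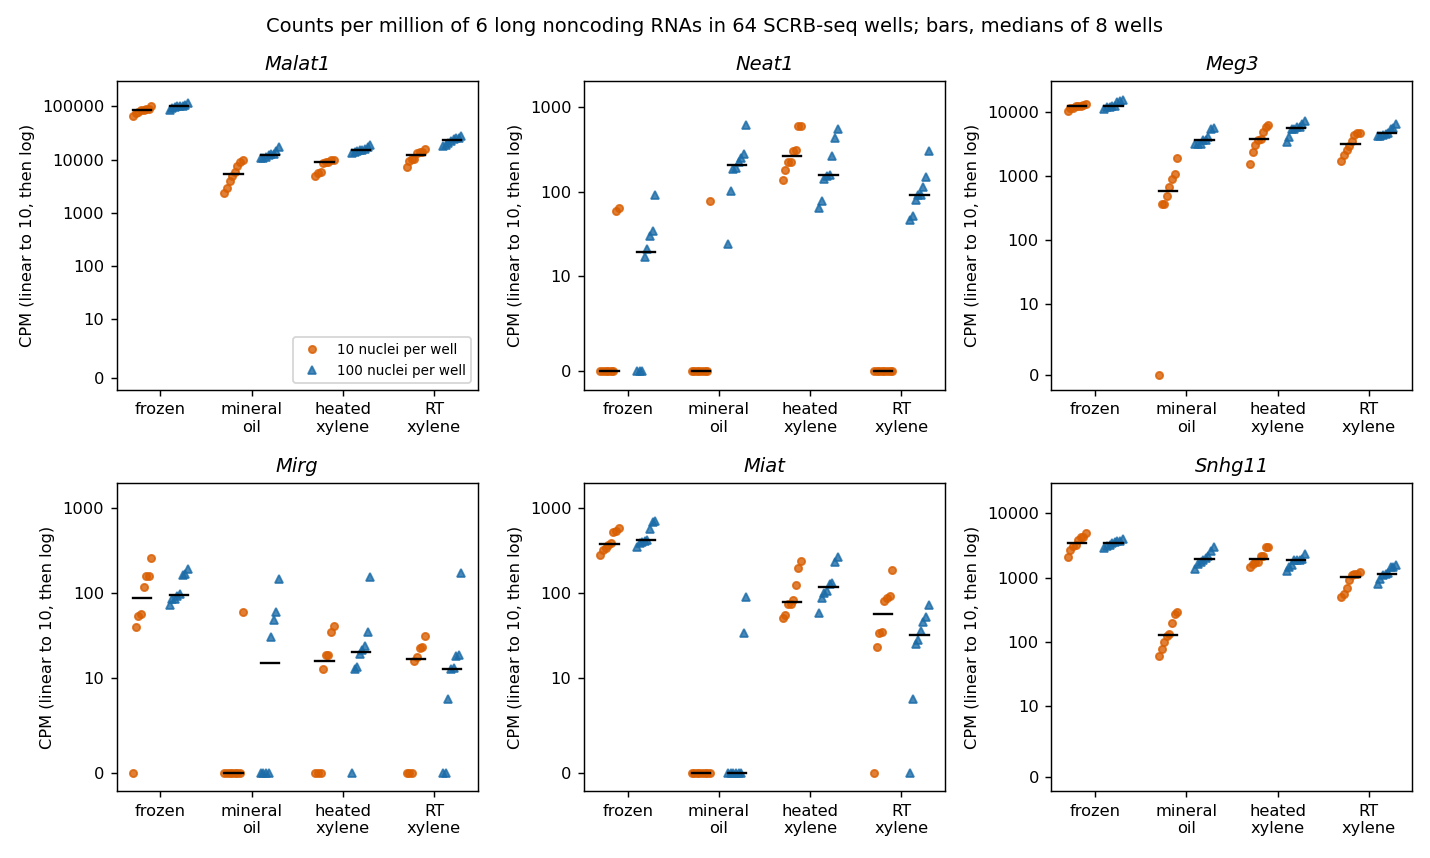
Level of 6 long noncoding RNAs in each of 64 SCRB-seq wells, in CPM on an axis that is linear to 10 and logarithmic above, by treatment (RT, room-temperature) and nuclei per well. Bars are medians of 8 wells; Malat1, Meg3 and Miat lie lower in all 48 FFPE wells than in all 16 frozen wells, and Neat1 is at 0 in the room-temperature xylene wells of 10 nuclei.

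Against frozen wells, each method was also tested alone. The share of all genes called was 55.1% for mineral oil, 50.3% for heated xylene and 49.5% for room-temperature xylene, and 4 of 5 members fell in each, where 29.6%, 20.0% and 19.6% of all genes fell. The fifth, Neat1, rose in mineral oil wells (2.41 ± 0.60, edgeR adjusted p = 0.00041) and in heated xylene wells (3.45 ± 0.60, edgeR adjusted p = 1.2e-06), where 25.6% and 30.2% of all genes rose. In room-temperature xylene wells its difference was 1.21 ± 0.59, with an edgeR adjusted p of 0.081, and in the wells of 100 nuclei alone it was 1.85 (edgeR adjusted p = 0.0098). The Snhg11 fall in heated xylene wells was the smallest of the called ones (-0.82 ± 0.31, edgeR adjusted p = 0.022) and was not called without the filter on low counts (-0.68, edgeR adjusted p = 0.12). With DESeq2 size factors in place of TMM, the median of all genes moved from 0.004 to -0.58 in FFPE minus frozen and the calls over all genes from 447 higher and 410 lower to 309 higher and 674 lower. The 5 members kept their calls and directions under it, with Neat1 at 1.88 (edgeR adjusted p = 0.0025).

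**Figure D2:**
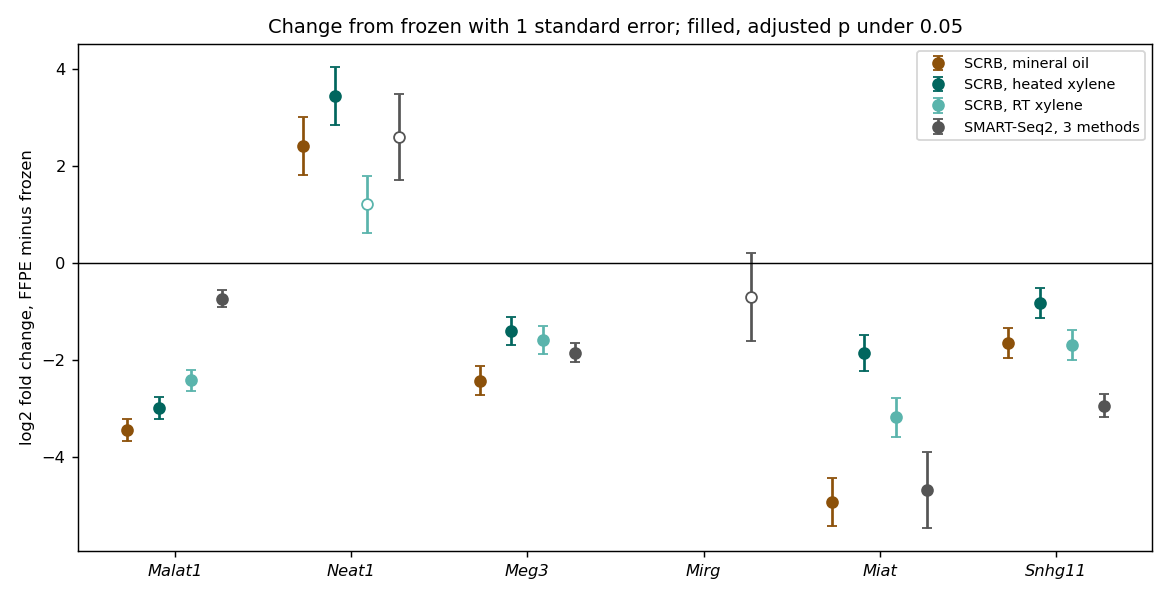
Log2 fold change of each member, FFPE minus frozen, with 1 standard error, for the 3 methods in SCRB-seq and for their mean in bulk SMART-Seq2 wells. Filled points passed an edgeR adjusted p of 0.05; Malat1, Meg3, Miat and Snhg11 lie below 0 in all 4 comparisons and Neat1 lies above, while Mirg was tested in SMART-Seq2 alone.

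Other noncoding RNA genes and the proteins of speckles and paraspeckles gave mixed directions in the same fit. Of 43 other noncoding RNA genes listed, 8 were tested, 2 rose and 3 fell, and their median change was -0.17 beside 0.004 over all genes. Gm26917, an unnamed noncoding gene, fell by 4.77 (SE 0.25, edgeR adjusted p = 1.0e-27), Snhg20, a small nucleolar RNA host gene, fell by 2.65, and A330008L17Rik rose by 2.33. Of 24 speckle and paraspeckle proteins, 9 were tested, 2 rose and 4 fell, and their median change was -0.22. Among the called ones were Pnn (-2.87) and Srsf11 (-1.69), which encode splicing-related speckle proteins, and Qk (1.68), which encodes the RNA-binding protein Quaking.

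Several lists of cell type markers moved with the same groups. The summed level of the 7 cerebellar granule neuron markers with a row was 21.7 CPM at the median of the frozen wells (0 to 101, with Gabra6 and Cbln3 at 0) and 1505 CPM at that of the FFPE wells (295 to 6115). The 5 oligodendrocyte markers had 362 CPM (64.7 to 770) in frozen and 1142 CPM (0 to 13209) in FFPE wells, and the 4 glutamatergic neuron markers 1033 CPM (637 to 1497) and 248 CPM (48.6 to 858). The 4 GABAergic neuron markers had 69.2 CPM (0 to 239) in frozen and 324 CPM (0 to 1377) in FFPE wells. The 5 astrocyte markers with a row had 456 CPM (186 to 846) in frozen and 915 CPM (209 to 5751) in FFPE wells, the 4 oligodendrocyte precursor markers 0 CPM (0 to 117) and 106 CPM (0 to 1074), and the 5 striatal spiny neuron markers 117 CPM (0 to 454) and 9.09 CPM (0 to 294, with Drd1 and Adora2a at 0). The 4 markers of neurons in general had 3930 CPM (2338 to 4927) and 3413 CPM (437 to 5038). The 4 Y-linked genes with a row had 246 CPM (0 to 681) in frozen and 37.5 CPM (0 to 174) in FFPE wells, where Eif2s3y was at 0 in all 48. The part of these markers, and of animal, in the members' differences was not tested. In bulk wells, fewer cells of a type and less RNA per cell cannot be told apart.

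Between the methods, fewer genes were called. In mineral oil against heated xylene, where 15.6% of all genes were called, 2.44% higher and 13.1% lower, 2 of 5 members were lower. These were Meg3 (-1.03 ± 0.29, edgeR adjusted p = 0.0075) and Miat (-3.07 ± 0.50, edgeR adjusted p = 5.3e-06). In heated against room-temperature xylene, where 5.89% were called and 3.25% were higher, 2 of 5 members were higher. These were Neat1 (2.24 ± 0.54, edgeR adjusted p = 0.0044) and Miat (1.32 ± 0.40, edgeR adjusted p = 0.032). In mineral oil against room-temperature xylene, where 17% were called and 14.3% were lower, 3 of 5 members were lower, namely Malat1 (-1.02 ± 0.21, edgeR adjusted p = 0.00019), Meg3 (-0.84 ± 0.29, edgeR adjusted p = 0.032) and Miat (-1.75 ± 0.52, edgeR adjusted p = 0.013). The oligodendrocyte markers also moved between the methods, with a median of 182 CPM in mineral oil wells (0 to 1462), 1953 CPM in heated xylene wells (829 to 4954) and 1845 CPM in room-temperature xylene wells (398 to 13209). The 4 GABAergic neuron markers moved the same way, with 72.9 CPM in mineral oil wells (0 to 316, with Gad2 and Slc32a1 at 0), 455 CPM in heated xylene wells (69.1 to 1377) and 506 CPM in room-temperature xylene wells (218 to 750). The part of either list in the members' differences was not tested.

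Several of these calls differed by nuclei number. In wells of 100 nuclei alone, Meg3 (-0.22, edgeR adjusted p = 0.39) and Miat (-0.69, edgeR adjusted p = 0.54) were not called between mineral oil and room-temperature xylene, nor was Neat1 between the xylene methods (1.03, edgeR adjusted p = 0.21). Snhg11 turned its direction between mineral oil and room-temperature xylene, at -2.74 in wells of 10 (edgeR adjusted p = 3.1e-07) and 0.87 in wells of 100 (edgeR adjusted p = 0.00064), with 0.05 in the fit of both (edgeR adjusted p = 0.94). Between mineral oil and heated xylene Snhg11 was at -3.86 in wells of 10 (edgeR adjusted p = 6.7e-11) and 0.22 in wells of 100 (edgeR adjusted p = 0.41). Miat was not called between the xylene methods in wells of 10 (0.63, edgeR adjusted p = 0.61). With nuclei number as a covariate, 5 of 5 members were lower in mineral oil than in heated xylene, where 278 of 1478 genes were called. The added ones were Snhg11 (-1.08, edgeR adjusted p = 0.0085), Neat1 (-1.75, edgeR adjusted p = 0.016) and Malat1 (-0.54, edgeR adjusted p = 0.0025). Between the xylene methods, 4 of 5 were called with the covariate, where 144 of 1478 genes were, with Snhg11 (0.92, edgeR adjusted p = 0.033) and Malat1 (-0.59, edgeR adjusted p = 0.0017) added. Fitted with only the groups compared, Meg3 kept its size but not its call in mineral oil against heated xylene (-0.94, edgeR adjusted p = 0.12, 25 of 588 genes called) and against room-temperature xylene (-0.80, edgeR adjusted p = 0.19, 33 of 677 genes called). The latter call was also lost with library totals (-0.80, edgeR adjusted p = 0.059). Thinning to 20000 counts left out wells with fewer counts, which occurred among mineral oil wells (lowest 7512) and frozen wells (lowest 17611) alone. In the wells kept, Meg3 lost its call in both mineral oil comparisons (-0.47 against heated xylene, edgeR adjusted p = 0.27, and -0.32 against room-temperature xylene, edgeR adjusted p = 0.48). Malat1 lost its call against room-temperature xylene (-0.66, edgeR adjusted p = 0.12). Fewer counts per well and the wells left out cannot be told apart in these lost calls.

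Well size was therefore compared within each treatment. Between 100 and 10 frozen nuclei, edgeR and DESeq2 each called 0 of 5 members, where edgeR called 0.0398% of 2511 genes. At an unadjusted p under 0.05 there was 1 member, Malat1 (0.48 ± 0.16). In mineral oil wells, where 55.3% of genes were called, 48.9% higher and 6.33% lower with 100 nuclei, and the median of all genes was 1.71, 4 of 5 members were higher. The Snhg11 wells did not overlap, with a highest level of 288 CPM in 8 wells of 10 and a lowest level of 1366 CPM in 8 wells of 100, a change of 4.05 ± 0.30 (edgeR adjusted p = 3.4e-18). Meg3 changed by 2.67 ± 0.30 (edgeR adjusted p = 5.3e-11), from 0, 580 and 1871 CPM at the lowest, median and highest of the wells of 10 to 3116, 3570 and 5639 CPM. Malat1 changed by 1.55 ± 0.17 (edgeR adjusted p = 3.3e-11). Neat1 had 1 count in the wells of 10 and 135 in the wells of 100, a 27.4-fold ratio of pooled CPM with an exact 95% interval of 4.83 to 1088 that covers counting error only.

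In heated xylene wells 1 of 5 members was higher with 100 nuclei, Malat1 (0.99 ± 0.16, edgeR adjusted p = 5.2e-06), where 25.9% of genes were called, 17.8% higher and 8.12% lower. In room-temperature xylene wells, where 15.4% were called, 9.6% higher and 5.81% lower, 2 of 5 members were higher, Malat1 (0.72 ± 0.16, edgeR adjusted p = 0.001) and Neat1 (edgeR adjusted p = 9.1e-06). Meg3 was called there too with library totals (0.71, edgeR adjusted p = 0.04) and in DESeq2's Wald test (0.71, adjusted p = 0.014). Neat1 there had 0 counts over 8 wells of 10 and 88 counts over 8 wells of 100, which makes its level with 100 nuclei at least 21.1-fold higher when the wells of 10 are set at the limit of 3 counts over the group. In heated xylene wells of 10 nuclei the same gene had 154 counts and lay in all 8 wells (138 to 598 CPM) above the highest of the frozen wells of 10 (64.7 CPM). Against frozen wells, the FFPE difference, averaged over the 3 methods, depended on nuclei number for 3 of 5 members, all in the direction of a higher level with 100 nuclei, where 16.6% of all genes were called, 14.6% higher and 2.03% lower, and the median of all genes was 0.53. The difference of differences was 2.62 ± 0.89 for Neat1 (edgeR adjusted p = 0.035), 1.14 ± 0.27 for Snhg11 (edgeR adjusted p = 0.0035) and 0.61 ± 0.19 for Malat1 (edgeR adjusted p = 0.02). These averages cover methods that differ. For Snhg11 the log2 change from 10 to 100 nuclei was 4.05 with mineral oil and was called, but -0.24 with heated and 0.13 with room-temperature xylene, beside 0.18 in frozen wells, and was not called in these 3. For Neat1 it was -0.48 in heated xylene beside 0.70 in frozen wells, neither of them called, and for Malat1 it was higher in each method than in frozen wells (0.48). The Neat1 call was lost without the filter on low counts (2.71, edgeR adjusted p = 0.054) and after thinning (3.65, edgeR adjusted p = 0.08), and the Malat1 call with Malat1 left out of the scaling (0.50, edgeR adjusted p = 0.05045). Meg3 (0.82, edgeR adjusted p = 0.055) was called with DESeq2 size factors (1.303, edgeR adjusted p = 0.0012), with library totals (1.24, edgeR adjusted p = 0.0017) and in DESeq2's Wald test (1.301, adjusted p = 6.6e-05). With DESeq2 size factors the median of all genes moved to 0.99 and the genes called from 417 to 729. Of the other noncoding RNA genes 2 of 9 were called higher in this contrast, Snhg20 and Gm26917 (1.39).

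The bulk SMART-Seq2 wells repeated the comparison with full-length chemistry. Of 6 members tested, 4 were lower in FFPE wells, where 4.09% of 9092 genes changed, 1.45% higher and 2.64% lower. Between methods edgeR and DESeq2 each called 0 of 6 members, where edgeR called 0.044% of genes in mineral oil against heated xylene and 0.0% in each other pair. At an unadjusted p under 0.05 there was 1 member in mineral oil against heated xylene (Meg3, -0.62) and 0 in each other pair.

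Snhg11 had 6950, 9151 and 12947 CPM in the frozen wells of 10, 50 and 100 nuclei. It had 1014, 1725 and 1399 CPM in the mineral oil wells, 2453, 1159 and 1432 CPM in the heated xylene wells and 1072, 1462 and 1887 CPM in the room-temperature xylene wells. No FFPE well reached the lowest frozen well, and the change was -2.94 ± 0.24 (7.68-fold lower, edgeR adjusted p = 1.5e-07).

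Meg3 had 7621, 11270 and 12326 CPM in the same frozen wells. It had 2082, 3345 and 3225 CPM with mineral oil, 4669, 4163 and 3832 CPM with heated xylene and 3494, 3745 and 2666 CPM with room-temperature xylene. The groups did not overlap, and Meg3 fell by 1.85 (SE 0.20, edgeR adjusted p = 1.5e-06).

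Miat had 416, 388 and 360 CPM in the frozen wells and no FFPE well above 43.5 CPM. It was at 0 in the mineral oil and room-temperature xylene wells of 10 nuclei. Miat fell by 4.69 (SE 0.78, edgeR adjusted p = 0.00054). Averaged over the methods, this was the largest fall of the members tested, as it was in SCRB-seq. With heated xylene alone in SCRB-seq, Malat1 fell more than Miat (-2.99 and -1.86).

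Malat1 had 11641, 21253 and 25955 CPM in the frozen wells of 10, 50 and 100 nuclei. It had 8330, 14388 and 13281 CPM with mineral oil, 14493, 13849 and 18357 CPM with heated xylene and 13174, 13964 and 17806 CPM with room-temperature xylene. The frozen well of 10 nuclei lay inside the FFPE range. Malat1 fell by 0.74 (SE 0.18, edgeR adjusted p = 0.018), and the call was lost without the frozen well of 100 (-0.33, edgeR adjusted p = 0.64), without the frozen well of 50 (-0.64, edgeR adjusted p = 0.14), without the mineral oil well of 10 (-0.59, edgeR adjusted p = 0.078), without the room-temperature xylene well of 10 (-0.63, edgeR adjusted p = 0.067) and in DESeq2's Wald test (-0.75, adjusted p = 0.27).

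Neat1 had 43.8, 44.4 and 10.7 CPM in the frozen wells of 10, 50 and 100 nuclei. It had 23.4, 289 and 59.2 CPM with mineral oil, 836, 115 and 265 CPM with heated xylene and 449, 52.9 and 269 CPM with room-temperature xylene. All FFPE wells but the mineral oil well of 10 were above the frozen wells, and the difference of 2.60 ± 0.89 had an edgeR adjusted p of 0.12. DESeq2's Wald test called it (adjusted p = 0.026), as did edgeR without the filter on low counts (adjusted p = 0.026) and without the mineral oil well of 10 (adjusted p = 0.045).

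Mirg ran from 37.0 to 74.0 CPM in the 3 frozen wells and from 10.2 to 192 CPM in the 9 FFPE wells, which overlapped (-0.69 ± 0.91, edgeR adjusted p = 0.83). Per kilobase of annotated exon, the mean level in frozen wells ordered the members as Malat1 (2809 CPM per kb), Snhg11 (1136), Meg3 (575), Miat (41.8), Mirg (7.92) and Neat1 (1.59). In FFPE wells the means were 2031 CPM per kb for Malat1, 192 for Meg3, 177 for Snhg11, 12.6 for Neat1, 7.10 for Mirg and 2.15 for Miat. Neat1 was divided by its long form of 20771 bases, and its last place in frozen wells depends on that length, since the short form has 3004 bases. The order of Meg3 and Snhg11 in FFPE wells also depends on the length used. All annotated exons together have 18089 bases for Meg3 and 8521 for Snhg11, and the longest transcripts 14548 and 5864.

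**Figure D3:**
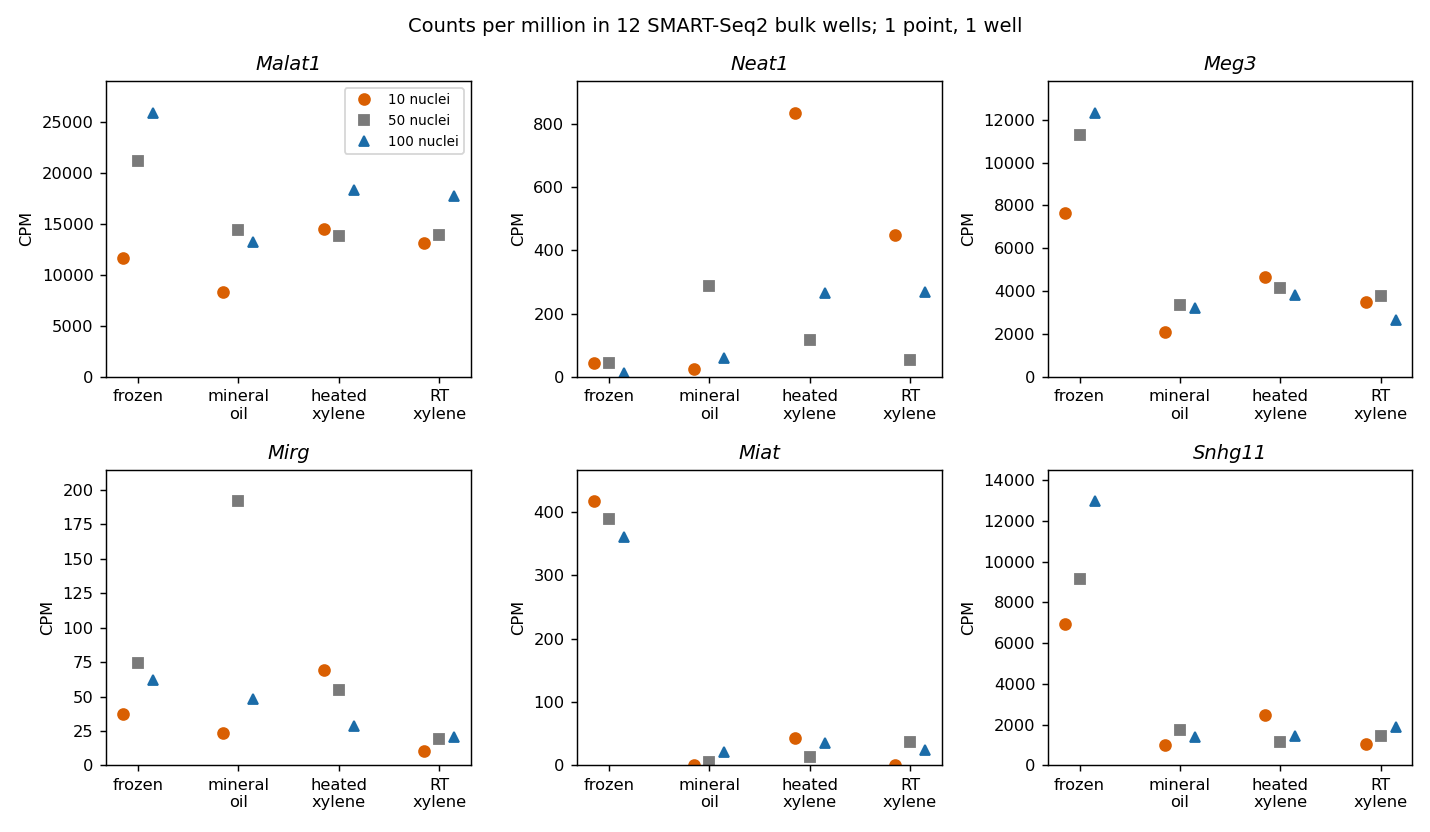
Level of 6 long noncoding RNAs in each of 12 bulk SMART-Seq2 wells, in CPM, by treatment (RT, room-temperature) and nuclei per well, with 1 well of 10, 50 and 100 nuclei for each treatment. Meg3, Miat and Snhg11 lie lower in all 9 FFPE wells than in all 3 frozen wells, whereas the Malat1 and Mirg levels overlap.

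Beside these values, the granule neuron markers had 62.1 CPM (48.1 to 143, 5 of 7 at 0) at the median of the frozen SMART-Seq2 wells and 1533 CPM (924 to 2999) at that of the FFPE wells. The oligodendrocyte markers had 118 CPM (66.2 to 300) and 1299 CPM (41.0 to 2168), and the GABAergic neuron markers 126 CPM (18.0 to 329) and 460 CPM (203 to 1078). The glutamatergic neuron markers had 782 CPM (577 to 825) in frozen and 87.3 CPM (9.42 to 277) in FFPE wells, with no overlap. The 3 Purkinje neuron markers with a row had 37.0 CPM (20.2 to 38.6) in frozen and 1.44 CPM (0 to 36.7) in FFPE wells. The 4 Y-linked genes with a row had 326 CPM (263 to 333) in frozen wells, and in FFPE wells Ddx3y, Eif2s3y and Kdm5d were at 0. The part of cell type and of animal in the members' differences was not tested. Of the other noncoding RNA genes, 17 of 43 were tested, and Gm26917 fell (-4.01 ± 0.35, edgeR adjusted p = 2.3e-07) while 1700020I14Rik rose (2.35 ± 0.56, edgeR adjusted p = 0.014). Of 20 speckle and paraspeckle proteins tested, edgeR called 0, with 3 at an unadjusted p under 0.05 and 2 called by DESeq2. Of the Dlk1-Dio3 coding genes 1 was tested, at -0.59, and it was not called by either tool.

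Single plate nuclei, again by SMART-Seq2, gave the members' spread from nucleus to nucleus. With 1 FFPE and 1 frozen sample of nuclei there is no test between them, and intervals cover counting error only. The median depth was 47887 counts in 143 FFPE nuclei and 255329 counts in 137 frozen nuclei, and its part in the shares below was not tested beyond thinning. Malat1 was counted in all 143 FFPE nuclei and in 136 of 137 frozen nuclei, with medians of 2110 and 3017 CPM.

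Summed over nuclei, Malat1 stood at 4739 CPM in FFPE and 3146 CPM in frozen nuclei, the opposite order of the medians. A single nucleus held 32.1% of the FFPE Malat1 counts. Of the FFPE nuclei, 9 were not among those of the second batch, and without them the pooled level was 2919 CPM. Their median depth was 604700 counts, beside 42747 in the second batch.

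Meg3 and Miat were lower in FFPE nuclei by either summary. Meg3 had medians of 1417 and 4730 CPM in FFPE and frozen nuclei and pooled levels of 2328 and 7002 CPM. Miat was counted in 20 of 143 FFPE nuclei (exact binomial 95% interval 8.76% to 20.8%) and in 69.3% of frozen nuclei (60.9 to 76.9), with pooled levels of 31.7 CPM (1 nucleus held 50.2% of these counts) and 291 CPM. Thinned to 10000 counts per nucleus, which kept 135 FFPE and 127 frozen nuclei, Miat was counted in 6.67% and 48.8%.

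Snhg11 had medians of 176 and 1099 CPM in FFPE and frozen nuclei, while the pooled levels were 2161 and 1896 CPM. That higher pooled Snhg11 level in FFPE nuclei turned without the 9 nuclei outside the second batch (1708 CPM), with the mean of CPM per nucleus (1207 and 1730 CPM) and when thinned (1217 and 1753 CPM). It was counted in 67.1% of FFPE nuclei (58.8 to 74.8) and 94.9% of frozen nuclei (89.8 to 97.9). Neat1 was counted in 17.5% of FFPE nuclei (11.6 to 24.7) and 39.4% of frozen nuclei (31.2 to 48.1), and thinned in 11.1% and 14.2%. Its pooled level had the opposite order, 70.0 CPM in FFPE (1 nucleus held 50.0% of these counts) and 27.6 CPM in frozen nuclei, and its highest level in a nucleus was 2575 and 571 CPM. Mirg was counted in 20.3% of FFPE nuclei and 54.7% of frozen nuclei, and thinned in 11.9% and 25.2%, with pooled levels of 58.5 and 98.5 CPM. The order of the Mirg levels turned with the mean of CPM per nucleus (82.9 and 62.8 CPM), when thinned (79.3 and 65.4 CPM) and without the 9 FFPE nuclei outside the second batch (123 CPM in FFPE).

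**Figure D4:**
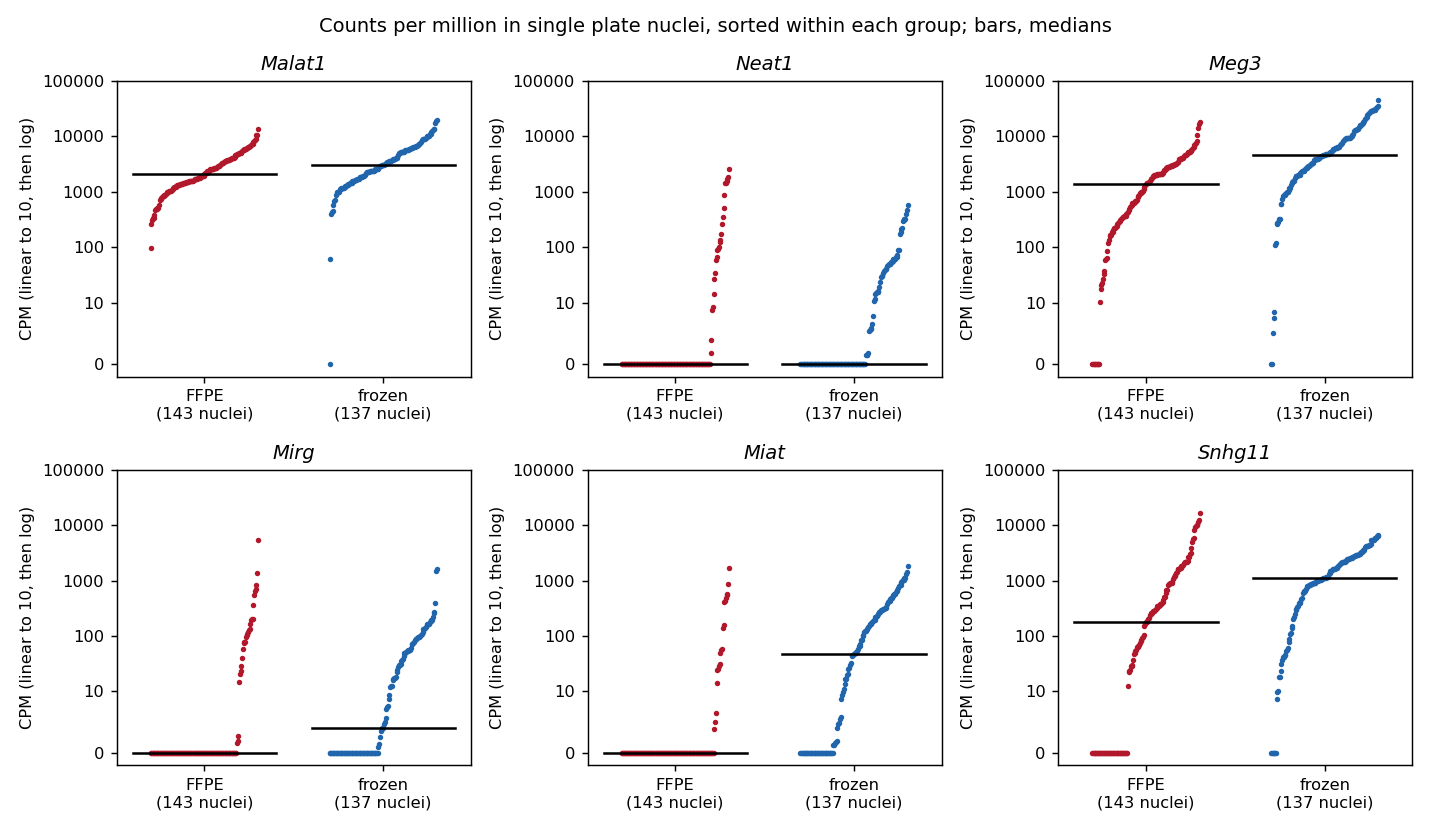
Level of 6 long noncoding RNAs in single plate nuclei (143 FFPE, 137 frozen), in CPM on an axis that is linear to 10 and logarithmic above, sorted within each group, with bars at the medians. Malat1 medians are 2110 CPM in FFPE and 3017 CPM in frozen nuclei, and most FFPE nuclei are at 0 for Neat1, Mirg and Miat.

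Across thinned frozen nuclei, as a description of nuclei that share plates and cell types, Spearman's rho between Meg3 and Snhg11 was 0.61 (127 nuclei), between Malat1 and Meg3 0.47 and between Malat1 and Snhg11 0.11. In 135 thinned FFPE nuclei the same pairs had 0.12, 0.11 and 0.16. The granule neuron markers stood at 576 CPM in the pooled FFPE nuclei and 74.6 CPM in the frozen ones, the glutamatergic markers at 216 and 760 CPM and the oligodendrocyte markers at 2570 and 2559 CPM. The GABAergic markers stood at 418 and 1015 CPM, the opposite order to the SCRB-seq wells, and the 4 Y-linked genes at 5.17 and 51.1 CPM. The part of these lists in the members' levels was not tested.

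The FFPE plate batches differed in pooled levels, and for most members the plates within a batch differed too. In 98 nuclei of the first batch and 134 of the second, pooled Malat1 was 6613 and 2919 CPM, Neat1 173 and 69.5 CPM, Mirg 39.5 and 123 CPM, Miat 3.74 and 60.8 CPM and Snhg11 773 and 1708 CPM. Miat was counted in 3 of 98 and 16 of 134 nuclei. Pooled Meg3 was 2544 and 2055 CPM, but the plates of the first batch had 8689 CPM (28 nuclei, of which 1 held 52.3% of the Meg3 counts) and 1430 CPM (70 nuclei). On the same plates Neat1 had 14.3 and 202 CPM, so that its second-batch level lay between them. Snhg11 had 2223 CPM (1 nucleus held 83.8% of its counts) and 510 CPM on the plates of the first batch and 2585 and 899 CPM on those of the second, which overlap. A single nucleus held 82.5% of the first-batch Mirg counts and 61.2% of the second-batch Miat counts. Malat1 was higher on both plates of the first batch (7329 and 6483 CPM) than on both of the second (1961 and 3802 CPM).

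In the droplet library the members were set against the authors' annotation classes, 6 of neurons (5580 nuclei) and 6 of other cells (1451 nuclei), with a median of 325 UMIs (unique molecular identifiers, which count molecules) per nucleus. No doublet caller was run here, and no source used here says how doublets were treated before deposit. Pooled over classes, Neat1 and Malat1 were higher in other cells, and Meg3 and Snhg11 in neurons. The ratio of the neuron level to the other level, in pooled CPM (counts here are UMIs), was 0.223 for Neat1 (exact 95% interval 0.156 to 0.320), 0.741 for Malat1 (0.715 to 0.768), 1.63 for Meg3 (1.54 to 1.73) and 1.47 for Snhg11 (1.38 to 1.58). For Mirg (1.51, 0.987 to 2.42) and Miat (0.965, 0.716 to 1.32) the interval held 1. This is 1 library, so these intervals cover counting error only and there is no test between animals.

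Malat1 was the most counted member, with 15899 UMIs in 83.1% of nuclei. It was highest in Astrocyte nuclei (8723 CPM, 8348 to 9109), then Fibroblast (8327), Oligodendrocyte (7806) and OPC, oligodendrocyte precursors (6936), and it was lowest in Microglia (5018, 4239 to 5898). The neuron classes lay between 5325 and 6217 CPM, so that Microglia and Endothelial nuclei (5407) did not share the higher level of the pooled other classes. Each class overlapped its neighbour in this order.

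Neat1 had 130 UMIs in all. Oligodendrocyte nuclei had 230 CPM (149 to 339, 25 UMIs) and Astrocyte nuclei 98.2 (62.3 to 147), while the 6 neuron classes ranged from 12.3 to 45.0. The Fibroblast value of 404 rested on 8 UMIs in 47 nuclei, and its interval of 174 to 796 overlapped that of Oligodendrocyte nuclei. In share of nuclei, Neat1 was counted in 7.72% of Oligodendrocyte nuclei (median 314 UMIs) and 1.09% of neuron nuclei (median 325 UMIs).

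Meg3 had 9252 UMIs and was highest in ExNeuron4 (5578 CPM, 5315 to 5851) and ExNeuron5 (5017, 4644 to 5412), which did not overlap the next class, ExNeuron1 (3806, 3674 to 3941). The other neuron classes had 2892 to 3249 CPM, and the classes of other cells 1716 to 2731. Snhg11, with 6619 UMIs, had 3346 CPM in ExNeuron4 (3143 to 3559), 2992 in ExNeuron5 (2706 to 3301) and 2820 in ExNeuron1 (2707 to 2937). Neighbours among these classes overlapped, while ExNeuron4 lay above ExNeuron1. Further down the order, ExNeuron2 (2517, 2352 to 2690) did not overlap the next class, ExNeuron3 (2127, 1985 to 2277). The lowest Snhg11 level was 1710 in Oligodendrocyte nuclei. Meg3 and Snhg11 were both widely counted outside neurons. Meg3 was in 46.5% to 50.5% and Snhg11 in 42.6% to 57.4% of the nuclei of each class of other cells. The 4 general neuron markers were likewise in 77.2% of Astrocyte nuclei (median 339 UMIs) and 85.7% of neuron nuclei (median 325 UMIs). Whether the Meg3 and Snhg11 UMIs in nuclei of other cells come from those cells or from free RNA was not tested, and the shares are not read as expression there.

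Miat had 270 UMIs, with 147 CPM in ExNeuron1 (122 to 176) and 43.0 in ExNeuron4 (22.9 to 73.5), which did not overlap, and with every pair of neighbours in its order overlapping. Mirg had 175 UMIs, from 111 CPM in ExNeuron6 to 0 of 47 nuclei in the Fibroblast class. That count of 0 allows a share of nuclei with a Mirg UMI of up to 6.38% (3 counts of 47) and says nothing of expression below this depth. The classes of other cells held 12 Mirg UMIs or fewer each, and every neighbouring pair of classes overlapped, so an order of Mirg among the classes was not detectable at this depth.

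**Figure D5:**
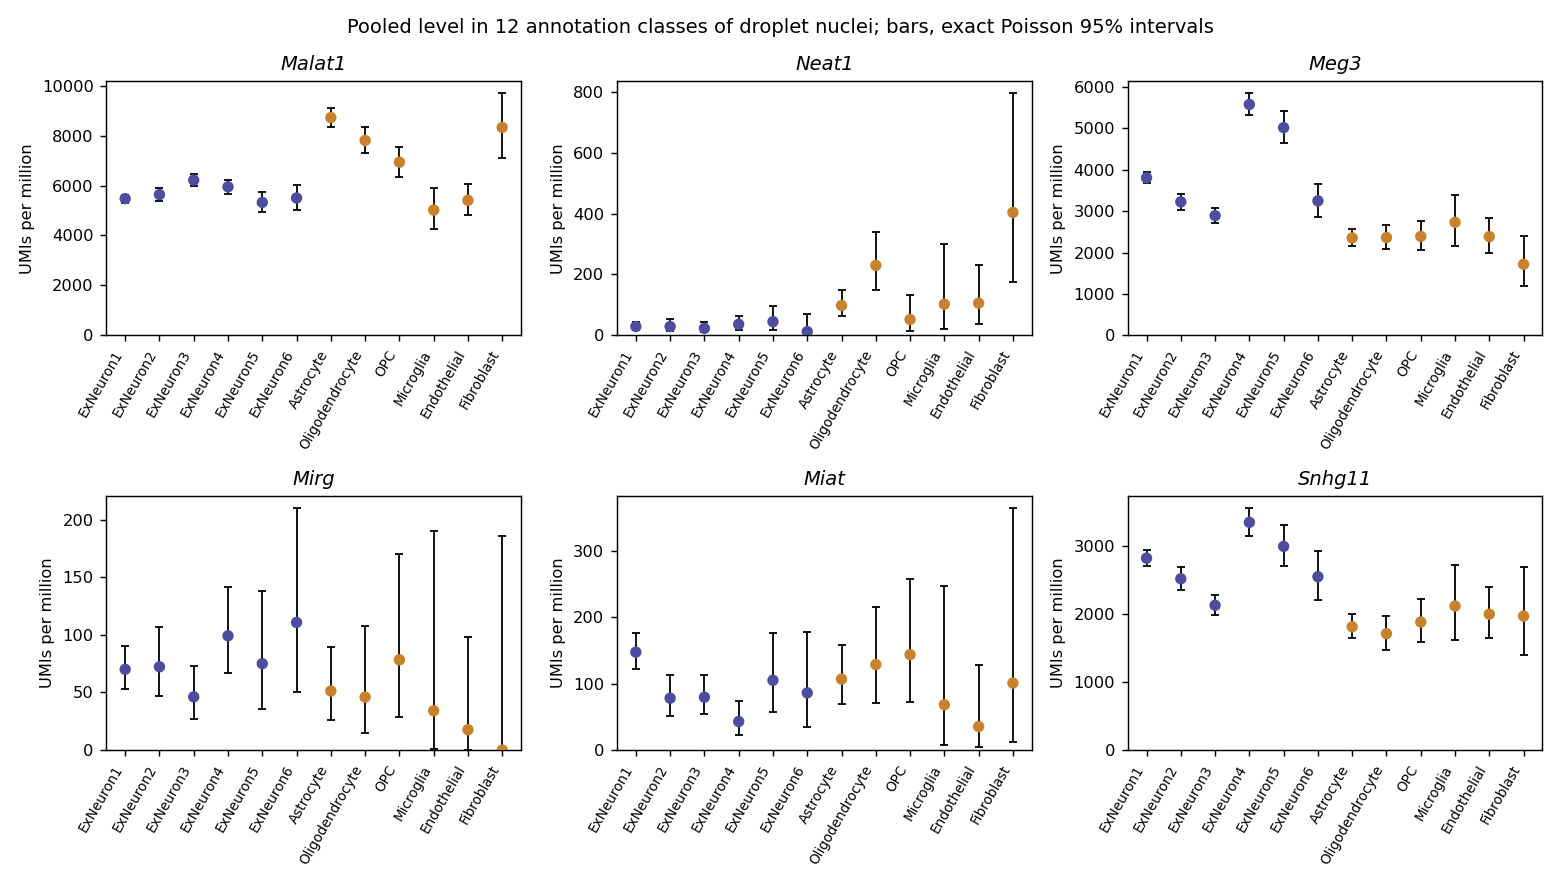
Pooled level of 6 long noncoding RNAs in each of 12 annotation classes of droplet nuclei, in CPM, with exact Poisson 95% intervals; neuron classes are blue and other classes orange. Meg3 and Snhg11 are highest in ExNeuron4, with intervals that overlap those of ExNeuron5, Malat1 is highest in Astrocyte nuclei and Neat1 lies above the neuron classes in Oligodendrocyte nuclei.

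Over the 11 classes with at least 50 nuclei, and among 898 genes with at least 500 UMIs, the gene whose level was most like that of Meg3 was Snhg11 (Pearson's r 0.96 across classes of 1 library), followed by Syp (0.92), which encodes the synaptic vesicle protein synaptophysin, and Tenm2 (0.91), which encodes a teneurin. Those most like Snhg11 were Meg3 (0.96), Tenm2 (0.92) and Syp (0.88). Those most like Malat1 were Gnao1 (0.92), which encodes a G protein alpha subunit, Ncoa1 (0.85) and Npas3 (0.83), both encoding transcriptional regulators.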

How the data were processed

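The authors deposited whole-number counts per gene for wells of nuclei (SCRB-seq and SMART-Seq2), plate nuclei and droplet nuclei (UMIs), and annotation tables with a percent and a fraction column per nucleus that were not used for any value here. Genome builds hg19 and mm10 are named in the submitters' processing notes, and no source used here gives the aligner, the counter or whether SCRB-seq counts are UMIs. In the deposited SCRB-seq count table, 10653 human genes held 1.61% to 31.8% of a well's counts and were left out of library sizes. The third plate batch was not used, and the 134 FFPE nuclei of the second batch are also in the table of FFPE and frozen nuclei.

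Wells were compared with edgeR 4.0.16 (R 4.3.3; TMM, filterByExpr, quasi-likelihood test, Benjamini-Hochberg adjustment over all genes tested, threshold 0.05) and, as an alternative, DESeq2 1.42.0. SE is the log2 fold change divided by the square root of F. Nuclei were summed per group with exact intervals (95%) in Python 3.11.15 with scipy 1.17.1, with no test between groups. Only the FFPE minus frozen fits were run on simulated counts, and no statement here rests on that run. Other alternatives were other scalings, no filter, wells of 10 or 100 nuclei alone, nuclei number as a term, thinning and leaving out wells. The members and gene lists were chosen with earlier results of these data known. Named genes were the members, up to 3 called genes with the largest change per list and comparison, and the 3 genes most like each member with at least 500 UMIs across droplet classes (Pearson's r of log2 of pooled CPM plus 10).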

Additional observations from a re-analysis of the deposited data

Results flagged for a closer look

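Within the groups of 8 SCRB-seq wells, the highest well stood apart from the others by Dixon's criterion in 9 of the 46 groups tested. Chance gives about 5% for continuous values but not for sparse counts, and each of these is a sparse gene. A group with 1 count in all, of which there are 2 here, meets the criterion by construction. For Neat1 the wells had 89.83 CPM in frozen wells of 100 nuclei (11 counts), 76.44 in mineral oil wells of 10 (1 count), 602.04 in mineral oil wells of 100 (40 counts) and 297.55 in room-temperature xylene wells of 100 (34 counts). For Mirg they had 60.91 CPM in mineral oil wells of 10 (1 count), 145.53 in mineral oil wells of 100 (12 counts), 154.34 in heated xylene wells of 100 (15 counts) and 175.03 in room-temperature xylene wells of 100 (20 counts). For Miat the well had 90.93 CPM in mineral oil wells of 100 (9 counts), with the next at 34.16.

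The difference between FFPE and frozen wells itself differed between 100 and 10 nuclei, in edgeR's interaction term, by 1.136 for Snhg11, 2.615 for Neat1 and 0.607 for Malat1 on the log2 scale, averaged over the 3 methods. The change from 10 to 100 nuclei in mineral oil, heated xylene and room-temperature xylene wells was 4.05, -0.24 and 0.13 for Snhg11 (frozen wells 0.18), and that of Neat1 in heated xylene was -0.48 (frozen wells 0.70).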

How the results depend on the processing

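Of the members' values in SCRB-seq wells, 391 kept direction and call under the alternatives, 23 gained a call, 14 lost it and 7 changed sign, and in SMART-Seq2 wells 100 kept both, 3 gained and 5 lost a call. These totals leave out the comparison of 100 with 10 frozen nuclei in SCRB-seq and the method pairs in SMART-Seq2. Thinning to 20000 counts left out wells with fewer counts, and 3 members could then be tested. The members called in the thinned SCRB-seq wells were 3 in FFPE, 3 in mineral oil and 3 in heated xylene against frozen, 0 in mineral oil against heated xylene, 1 between the xylene methods and 0 in mineral oil against room-temperature xylene (14, 16 and 27 of 469 genes in the last 3). With only the groups compared, where 3 could be tested, they were 0, 1 and 1 in those last comparisons (25 of 588, 42 of 899 and 33 of 677 genes). With nuclei number as a covariate, mineral oil against heated xylene had 5 and the xylene methods 4 (278 and 144 of 1478 genes), and in wells of 10 alone they had 4 and 1 (224 and 38 of 783 genes). Between 100 and 10 nuclei in heated xylene, 2 were called with DESeq2 size factors and 2 in the DESeq2 Wald test, and in room-temperature xylene 3 in the DESeq2 Wald test. In mineral oil against heated xylene, Snhg11 (0.22) and Neat1 (0.038) turned in wells of 100, with Snhg11 at -3.86 in wells of 10. In mineral oil against room-temperature xylene, Snhg11 was -0.003 without the filter, -2.74 in wells of 10 and -0.16 with the covariate. Thinned, Miat was -0.17 in heated xylene between 100 and 10 nuclei and -0.17 in the difference of differences. The cause was not tested.

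In plate nuclei the log2 ratio of FFPE to frozen turned with the mean of CPM per nucleus, with thinning and without the 9 FFPE nuclei outside the second batch, at -0.58, -0.58 and -0.11 for Malat1, 0.40, 0.28 and 0.32 for Mirg and -0.52, -0.53 and -0.15 for Snhg11. Leaving out 1 SMART-Seq2 well at a time gave 3 to 4 members called and 162 to 469 genes. All-gene calls in FFPE against frozen were 857 of 1478 tested in SCRB-seq, 4785 of 19006 without the filter and 316 of 469 after thinning, and 372 of 9092 in SMART-Seq2 but 630 in DESeq2. The labels give the groups no shared replicate numbers. With the SMART-Seq2 wells matched by nuclei number as a block, there were 4 members and 429 genes called. Few UMIs limited Neat1, Mirg and Miat in droplets.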
